A study of Mus musculus with 9 samples.

Results

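The genes described here are 10 mouse genes of the response to low oxygen and of glycolysis: the glucose transporter gene Slc2a1, the glycolytic enzyme genes Hk2, Pfkp, Aldoa, Pgk1 and Ldha, and the genes Pdk1, Bnip3, Vegfa and Car9. They were chosen by name, as the non-control probes whose gene name in the scanner files equals 1 of these symbols. All 10 genes were found, on 16 of the 55666 probes kept, and all 10 were among the 25410 genes tested on the 9 arrays. Bnip3 and Ldha had 3 probes each, Pfkp and Vegfa had 2 each, and the other 6 genes had 1 each.

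Cells that lack oxygen stabilise hypoxia-inducible factors (HIF), which bind DNA at a short core sequence and raise the transcription of genes for glucose uptake, glycolysis, blood vessel growth and control of acidity. Well oxygenated cells hydroxylate the HIF alpha subunits, after which the VHL protein marks them for degradation. Many gliomas use glucose heavily and hold poorly perfused regions, and several of these genes are used as markers of hypoxia in brain tumours.

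The series measured RNA of 9 mouse samples, each on 1 single-colour Agilent expression array, to set a mouse glioma model beside normal brain cells. The 3 tissue samples came from brain tumours of mice of the MADM background in which EZH2 was knocked out. MADM (Mosaic Analysis with Double Markers) is a genetic method in which rare recombination between chromosomes makes labelled mutant and wild-type daughter cells in 1 animal. The 2 samples of MADM glioma cells came from brain tumours of the same background, and their labels give no genotype at EZH2. The 2 samples of astrocytes and the 2 of neural stem cells were from normal, wild-type brain of strain C57BL/6J. Labels name neither the tumour suppressor alleles nor the Cre driver of the model, and they give no age, treatment or culture condition, oxygen included. Nor do they tell if same-group samples are separate animals or cultures, so each p-value reflects the spread among these arrays alone, and that spread can be technical. No glioma tissue with intact EZH2 was analysed here. The tissue differs from all cell groups in being tissue and in slide, scan and image software at once. It also differs from the wild-type astrocytes and neural stem cells in EZH2 genotype, in being tumour and in the labelled mouse background. Whether its EZH2 genotype differs from that of the glioma cells is not known. The glioma cells differ from the astrocytes and neural stem cells in coming from tumour and in labelled background at once. These differences cannot be told apart.

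A level below is the log2 processed signal of a gene's brightest probe minus the 75th percentile of its array, so 0 is the signal below which 75% of the probes of that array lie. Levels of different genes are not set against each other, since probes differ in how well they hybridise. A gene is called in a comparison where limma's adjusted p was under 0.05 and the change was at least 2-fold. Between 60.1% and 65.7% of the spots of an array were well above background, and 75th percentile signals ran from 415 to 897. Ezh2, with 1 probe, lay at 1.91, 1.62 and 1.48 on the knockout tissue arrays, 3.03 and 3.24 in glioma cells, 0.19 and -0.58 in astrocytes and 2.14 and 3.38 in neural stem cells. It was well above background on all 9 arrays. Whether the probe lies in the deleted stretch is not given in the sources used here, so these values do not test the label. Markers of the labelled cell types were present, and arrays of 1 group also differed in them. The 8 astrocyte markers averaged 4.69 and 3.26 on the astrocyte arrays, and the 7 neural stem cell markers 5.39 and 5.38 on the neural stem cell arrays. Neural stem cell array 1 also averaged 3.27 on the astrocyte markers against 0.08 on array 2, and astrocyte array 2 averaged 6.10 on 5 fibroblast and meningeal markers against 0.64 on array 1.

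The sequences before the genes' start sites were searched for the HIF core sequence. Printed are 4 of them, because these genes carry the 2 patterns described below. Bnip3, Pdk1 and Vegfa varied together between the arrays of the glioma cells and between those of the neural stem cells, and Ldha did not. Each is the 250 bases before the start site in RefSeq, build GRCm38.p6, written 5′ to 3′ on the strand of the gene, with the HIF core letters ACGTG or GCGTG of either strand in capitals (CACGT and CACGC when read on the gene's own strand). The 2 strands' letters overlap where CACGTG stands, which holds ACGTG and its reverse complement. Bnip3 lies at chr7:138909507-138909756 on the minus strand, Pdk1 at chr2:71872974-71873223 on the plus strand, Vegfa at chr17:46032378-46032627 on the minus strand and Ldha at chr7:46845554-46845803 on the plus strand.
Bnip3: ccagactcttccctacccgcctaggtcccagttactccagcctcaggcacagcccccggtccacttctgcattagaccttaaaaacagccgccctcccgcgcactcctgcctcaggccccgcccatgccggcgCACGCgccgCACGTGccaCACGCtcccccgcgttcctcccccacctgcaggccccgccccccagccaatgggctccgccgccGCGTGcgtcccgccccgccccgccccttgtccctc
Pdk1: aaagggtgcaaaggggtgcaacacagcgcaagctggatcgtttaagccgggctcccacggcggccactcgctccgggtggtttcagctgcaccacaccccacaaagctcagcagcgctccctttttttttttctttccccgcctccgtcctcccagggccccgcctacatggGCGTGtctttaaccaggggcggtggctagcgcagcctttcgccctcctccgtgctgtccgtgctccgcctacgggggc
Vegfa: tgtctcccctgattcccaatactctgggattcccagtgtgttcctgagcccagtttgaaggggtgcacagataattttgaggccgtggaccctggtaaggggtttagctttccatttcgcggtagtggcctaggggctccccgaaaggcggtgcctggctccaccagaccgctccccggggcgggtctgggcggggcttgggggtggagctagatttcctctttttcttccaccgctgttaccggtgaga
Ldha: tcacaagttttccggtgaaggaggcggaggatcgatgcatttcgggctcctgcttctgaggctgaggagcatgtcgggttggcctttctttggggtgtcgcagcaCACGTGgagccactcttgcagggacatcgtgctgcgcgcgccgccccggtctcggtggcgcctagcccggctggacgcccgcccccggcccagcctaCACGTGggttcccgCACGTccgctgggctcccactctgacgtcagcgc
Bnip3 held 5 matches, from base -117 to base -31 counted back from the start site, and Ldha also held 5, among them the palindrome CACGTG at -145 and again at -48. Pdk1 held 1 match, at -78, and this Vegfa window held none, while a window before a second Vegfa start, at chr17:46025164-46025413, held 2. Over all listed start sites, 12 of 15 windows of the 10 genes held a match. Each of the 10 genes held 1 in at least 1 window, beside 41.5% of all genes, a share not matched for GC content. Vegfa held its matches only in the second window, which lies inside the gene's RefSeq span, as do all matched windows of Aldoa, Ldha and Pfkp. A pair of overlapping Aldoa windows hold the same single site, which is counted in both. Among all 32851 listed windows the share was 38.6%, and among the 6875 windows whose GC content was within 5 percentage points of the 10 genes' median of 62.8% it was 58.5%. A match describes the letters only, and a window without one says nothing about HIF at that gene.

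Across the 4 groups, 4 of the 10 genes differed by limma's moderated F test, beside 38.4% of all genes tested: Pfkp (adjusted p = 0.007), Pgk1 (0.009), Hk2 (0.041) and Slc2a1 (0.048). Car9 missed the threshold at adjusted p = 0.054 and Ldha at 0.131. Vegfa (0.346), Aldoa (0.525), Bnip3 (0.863) and Pdk1 (0.942) were further from it. The share of these genes that passed was therefore near the share of all genes. Hk2 and Slc2a1 stood at the threshold: with 1 array left out, Hk2 was above it in 8 of the 9 fits and Slc2a1 in 8, at adjusted p up to 0.101 and 0.176. Without the filter on dim probes both missed it (0.055 and 0.065), and without scaling Hk2 (0.114) and Pgk1 (0.107) did.

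**Figure D1:**
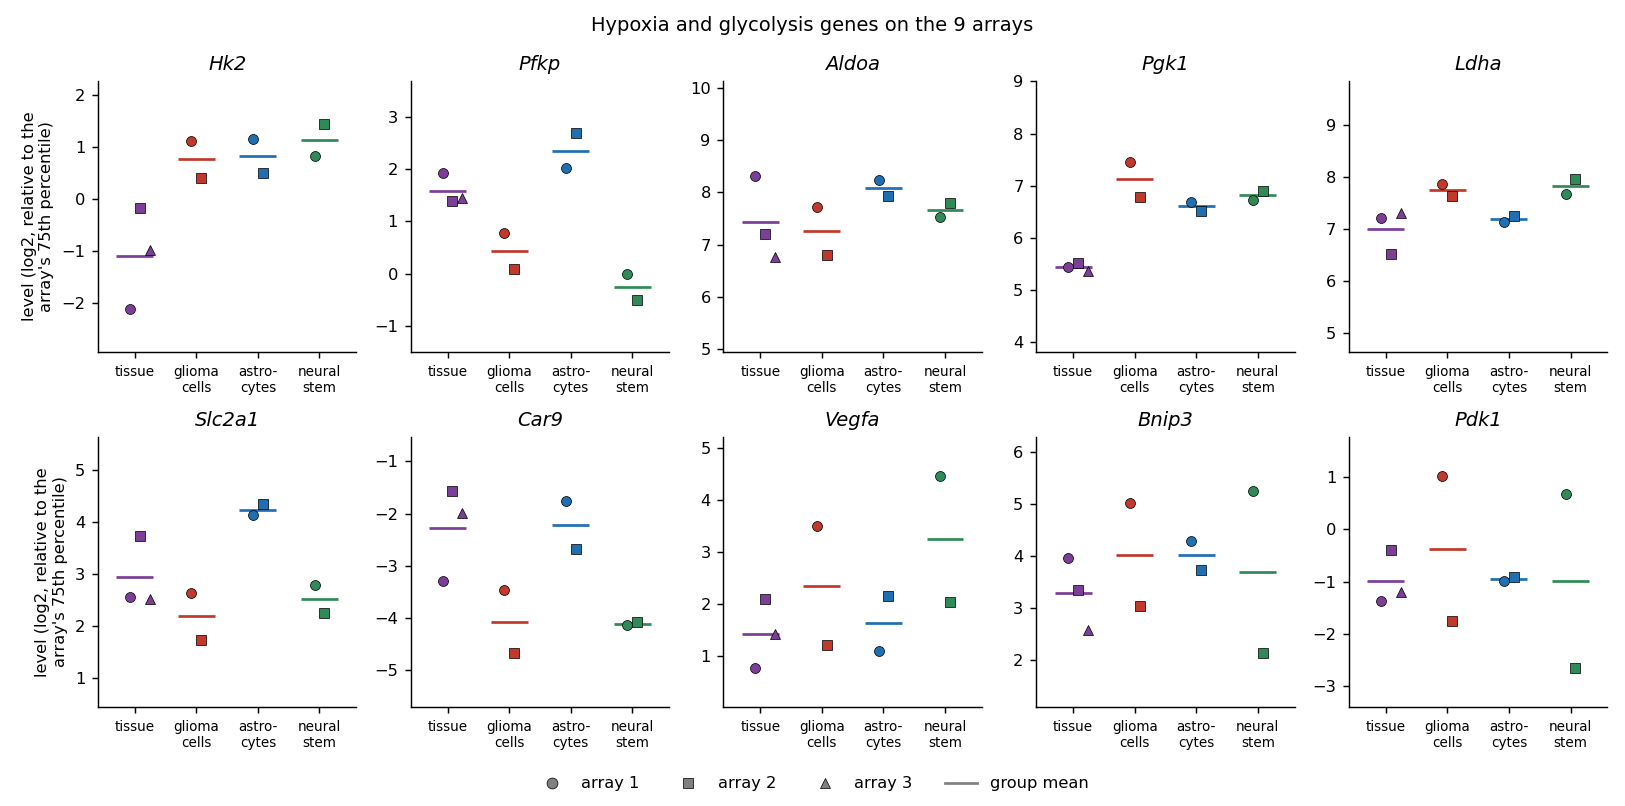
Level of each gene (log2, relative to the array's 75th percentile) on the 9 arrays, 1 panel a gene, with symbols for array number and a line at the group mean. Each panel spans the same number of log2 units. Pgk1 and Hk2 sit lowest in the tissue and Pfkp and Slc2a1 highest in astrocytes, while Vegfa, Bnip3 and Pdk1 differ most between array 1 and array 2 of the glioma cells and of the neural stem cells.

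Slc2a1 encodes GLUT1, which carries glucose across the plasma membrane and is the main glucose transporter of the blood-brain barrier. Its level was 4.14 and 4.34 in astrocytes, 2.64 and 1.75 in glioma cells, 2.78 and 2.25 in neural stem cells, and 2.56, 3.73 and 2.53 in tissue. Both astrocyte arrays were above all 7 others, and the other 3 groups overlapped. Slc2a1 fell by 2.05 ± 0.41 (SE) on the log2 scale in glioma cells against astrocytes, with limma's adjusted p = 0.029. Leaving out glioma cell array 2 (adjusted p = 0.105) or either astrocyte array (0.098 and 0.115) ended the call. Neural stem cells against astrocytes gave -1.72 ± 0.41, just short of a call at adjusted p = 0.050, and tissue against astrocytes gave -1.30 ± 0.46 at 0.077.

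Hk2 encodes hexokinase 2, which phosphorylates glucose in the first step of glycolysis. On the 6 cell arrays its level ran from 0.41 to 1.43, with the 3 cell groups overlapping. On the tissue arrays it was -2.11, -0.18 and -0.98, below every cell array. Hk2 fell by 2.22 ± 0.57 in tissue against neural stem cells (limma's adjusted p = 0.034) and by 1.92 ± 0.57 in tissue against astrocytes (0.045), and the difference from glioma cells, -1.85 ± 0.57, was not called (0.061). Tissue array 1 was the lowest, and without it the first 2 values were -1.71 (adjusted p = 0.056) and -1.41 (0.080). Both calls were also lost without tissue array 3 (0.074 and 0.096), and without either array of the cell group compared (0.066 and 0.184 for neural stem cells, 0.210 and 0.097 for astrocytes). The call against astrocytes was lost in a further 4 fits, each without 1 glioma cell or neural stem cell array, with adjusted p up to 0.059. Without scaling between arrays neither was called (adjusted p = 0.108 and 0.076), and without the filter on dim probes the second was not (0.061).

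Pfkp encodes the platelet isoform of phosphofructokinase, the main point of control of glycolysis. Its brightest probe gave 2.02 and 2.70 on the astrocyte arrays, 1.93, 1.39 and 1.45 in tissue, 0.77 and 0.09 in glioma cells and -0.02 and -0.51 in neural stem cells. The 4 groups did not overlap in that order. Pfkp fell by 1.93 ± 0.42 in glioma cells against astrocytes (limma's adjusted p = 0.034) and by 2.62 ± 0.42 in neural stem cells against astrocytes (0.019), and it rose by 1.86 ± 0.36 in tissue against neural stem cells (0.013). The first of these was lost in each of the 6 fits that left out 1 cell array, at adjusted p up to 0.136. The other 2 were lost without neural stem cell array 2 (0.091 in each), and the second also without astrocyte array 2 (0.082). Tissue against glioma cells gave 1.16 ± 0.36 (0.062) and tissue against astrocytes -0.77 ± 0.36 (0.154).

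A second Pfkp probe, which the files assign to the same transcript, did not give that order. It read 0.21, -0.77 and -0.75 in tissue, -1.94 and -2.02 in glioma cells, -2.17 and -1.33 in astrocytes and -2.45 and -2.24 in neural stem cells. On it the tissue was above every cell array and the glioma cells overlapped the astrocytes. With both probes averaged, glioma cells against astrocytes gave -1.08 (adjusted p = 0.090), no longer called, and tissue against astrocytes turned to 0.27 (0.601).

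Aldoa, whose product splits fructose 1,6-bisphosphate, overlapped between most groups, with 8.31, 7.21 and 6.76 in tissue, 7.71 and 6.80 in glioma cells, 8.25 and 7.93 in astrocytes and 7.53 and 7.80 in neural stem cells. No comparison called it, and the difference with the smallest unadjusted p was glioma cells against astrocytes, -0.84 ± 0.40 (limma's adjusted p = 0.188). The tissue arrays alone spread over 1.55.

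Pgk1 encodes phosphoglycerate kinase, which makes ATP late in glycolysis. Its level was 5.44, 5.52 and 5.36 in tissue, 7.46 and 6.79 in glioma cells, 6.69 and 6.51 in astrocytes and 6.72 and 6.91 in neural stem cells. All 3 tissue arrays lay below all 6 cell arrays, and the tissue arrays differed among themselves by at most 0.16. Pgk1 fell in tissue by 1.68 ± 0.27 against glioma cells (limma's adjusted p = 0.007), by 1.37 ± 0.27 against neural stem cells (0.015) and by 1.16 ± 0.27 against astrocytes (0.021). It was the only 1 of the 10 genes called in tissue against all 3 cell groups. These 3 comparisons share the tissue arrays. Single arrays ended the calls: the first without glioma cell array 1 (adjusted p = 0.052), the second without neural stem cell array 2 (0.088), and the third without tissue array 3 (0.063) or either astrocyte array (0.111 and 0.075). Without scaling between arrays none of the 3 was called, at -1.14 (0.081), -0.86 (0.181) and -1.06 (0.089). Quantile normalization ended the second, at -0.95 (0.057). The files place this gene's only probe on chromosome 3, at chr3:57906830-57906894 of build mm9, while RefSeq has the gene on chromosome X, so the values may include a near-identical copy.

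Ldha, the lactate dehydrogenase subunit that turns pyruvate into lactate, gave 7.21, 6.52 and 7.31 in tissue, 7.88 and 7.64 in glioma cells, 7.13 and 7.25 in astrocytes and 7.67 and 7.97 in neural stem cells. On this brightest probe glioma cells and neural stem cells lay above the other groups on every array, by small amounts. A second probe gave the same separation. On the third, glioma cell array 2 (2.05) was below tissue array 3 (2.17) and astrocyte array 2 (2.13). Tissue against neural stem cells gave -0.81 ± 0.31 (limma's adjusted p = 0.106), and tissue against glioma cells gave -0.75 ± 0.31 (0.130). Against astrocytes, glioma cells gave 0.57 ± 0.28 (0.200) and neural stem cells 0.63 ± 0.28 (0.173), which turned to -0.033 under quantile normalization. No difference in Ldha was called.

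Pdk1 encodes a kinase that shuts off pyruvate dehydrogenase and so keeps pyruvate out of the mitochondria. Its level was 1.02 on glioma cell array 1 and -1.76 on array 2, 0.68 on neural stem cell array 1 and -2.65 on array 2, -0.99 and -0.91 on the astrocyte arrays, and -1.38, -0.39 and -1.21 in tissue. The 2 highest and the 2 lowest values therefore came from the same 2 groups, and those groups spanned all others.

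Bnip3, whose product drives the removal of mitochondria by autophagy, had the same shape. It read 5.01 and 3.04 in glioma cells, 5.26 and 2.13 in neural stem cells, 4.28 and 3.74 in astrocytes and 3.96, 3.35 and 2.58 in tissue. Its other 2 probes repeated it, with 4.20 and 2.31 in glioma cells and 4.53 and 1.44 in neural stem cells on one, and -2.05 and -3.96, then -1.37 and -4.51, on the other.

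Vegfa encodes the main growth factor for blood vessels. It read 3.50 and 1.22 in glioma cells, 4.47 and 2.04 in neural stem cells, 1.11 and 2.16 in astrocytes and 0.77, 2.10 and 1.43 in tissue. Array 1 was again above array 2 in glioma cells and in neural stem cells, while the astrocyte arrays had the opposite order. A second probe gave -0.58 and -2.30 in glioma cells and -0.17 and -1.26 in neural stem cells.

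No comparison called Pdk1, Bnip3 or Vegfa. The standard deviation between arrays of a group, pooled over the 4 groups, was 1.41 for Pdk1, 1.26 for Bnip3 and 1.18 for Vegfa, against a median of 0.43 over all genes. It exceeded that of 95.9%, 93.9% and 92.5% of genes. The 95% intervals were accordingly wide: glioma cells against neural stem cells gave 0.61 (-2.81 to 4.04) for Pdk1, 0.34 (-2.63 to 3.30) for Bnip3 and -0.89 (-3.68 to 1.89) for Vegfa. A difference of several-fold between groups in either direction was not detectable with 2 arrays a group.

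Car9, a membrane carbonic anhydrase that acidifies the outside of the cell and is a common marker of hypoxia, was dim. It gave -3.29, -1.56 and -1.98 in tissue, -3.47 and -4.68 in glioma cells, -1.76 and -2.68 in astrocytes and -4.14 and -4.09 in neural stem cells, and it was well above background on 8 of the 9 arrays, glioma cell array 2 being the exception. All tissue and astrocyte arrays lay above all glioma cell and neural stem cell arrays. None of these differences was called: tissue against glioma cells was 1.80 ± 0.59 (limma's adjusted p = 0.076), tissue against neural stem cells 1.83 ± 0.59 (0.070), glioma cells against astrocytes -1.86 ± 0.53 (0.066) and neural stem cells against astrocytes -1.89 ± 0.53 (0.071). Without tissue array 1, the first 2 were 2.30 and 2.34 and passed (0.037 and 0.033). After normexp background correction they were 0.75 and 0.84, and the other 2 were -0.64 and -0.75, so the size of each depends on how the dim signal is treated.

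Put together by comparison, glioma cells against astrocytes called 2 of the 10 genes, both lower, beside 19% of all genes tested. The median difference of the 10 was -0.02, against 0.15 over all genes. For 6 of the 10 genes (2 higher, 4 lower) the levels of both groups were fully apart, beside 69.2% of all genes. Neural stem cells against astrocytes called 1, Pfkp, beside 14.6%, with a median of -0.18 against 0.21, and arrays did not overlap for 6 (2 higher, 4 lower), beside 66.3%. Glioma cells against neural stem cells called none, beside 0.993%, with a median of -0.01 against -0.05. At an unadjusted p under 0.05 that comparison also had none of the 10, the smallest p being 0.152 for Pfkp, the 1 gene whose arrays did not overlap (46.1% of all genes).

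Tissue against glioma cells called 1 of the 10, Pgk1, beside 16.9% of all genes tested, with a median of -0.68 against -0.16 over all genes, and arrays did not overlap for 5 (2 higher, 3 lower), beside 55.2%. Tissue against neural stem cells called 3, with Pfkp higher and Hk2 and Pgk1 lower, beside 18%, with a median of -0.32 against -0.22, and arrays did not overlap for 5 (2 higher, 3 lower), beside 52.3%. Tissue against astrocytes called 2, Hk2 and Pgk1, both lower, beside 23%, with a median of -0.69 against -0.06. All 10 fitted differences were below 0, with Car9 (-0.06 ± 0.59) and Pdk1 (-0.05 ± 1.07) nearest to it. The sign for Pfkp depended on the probe, since its second probe gave 1.31. Arrays did not overlap there for 4, all lower, beside 58% of all genes. The 3 tissue comparisons use the same tissue arrays. Shares of 1 to 3 in 10 were near the share of all genes in each.

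**Figure D2:**
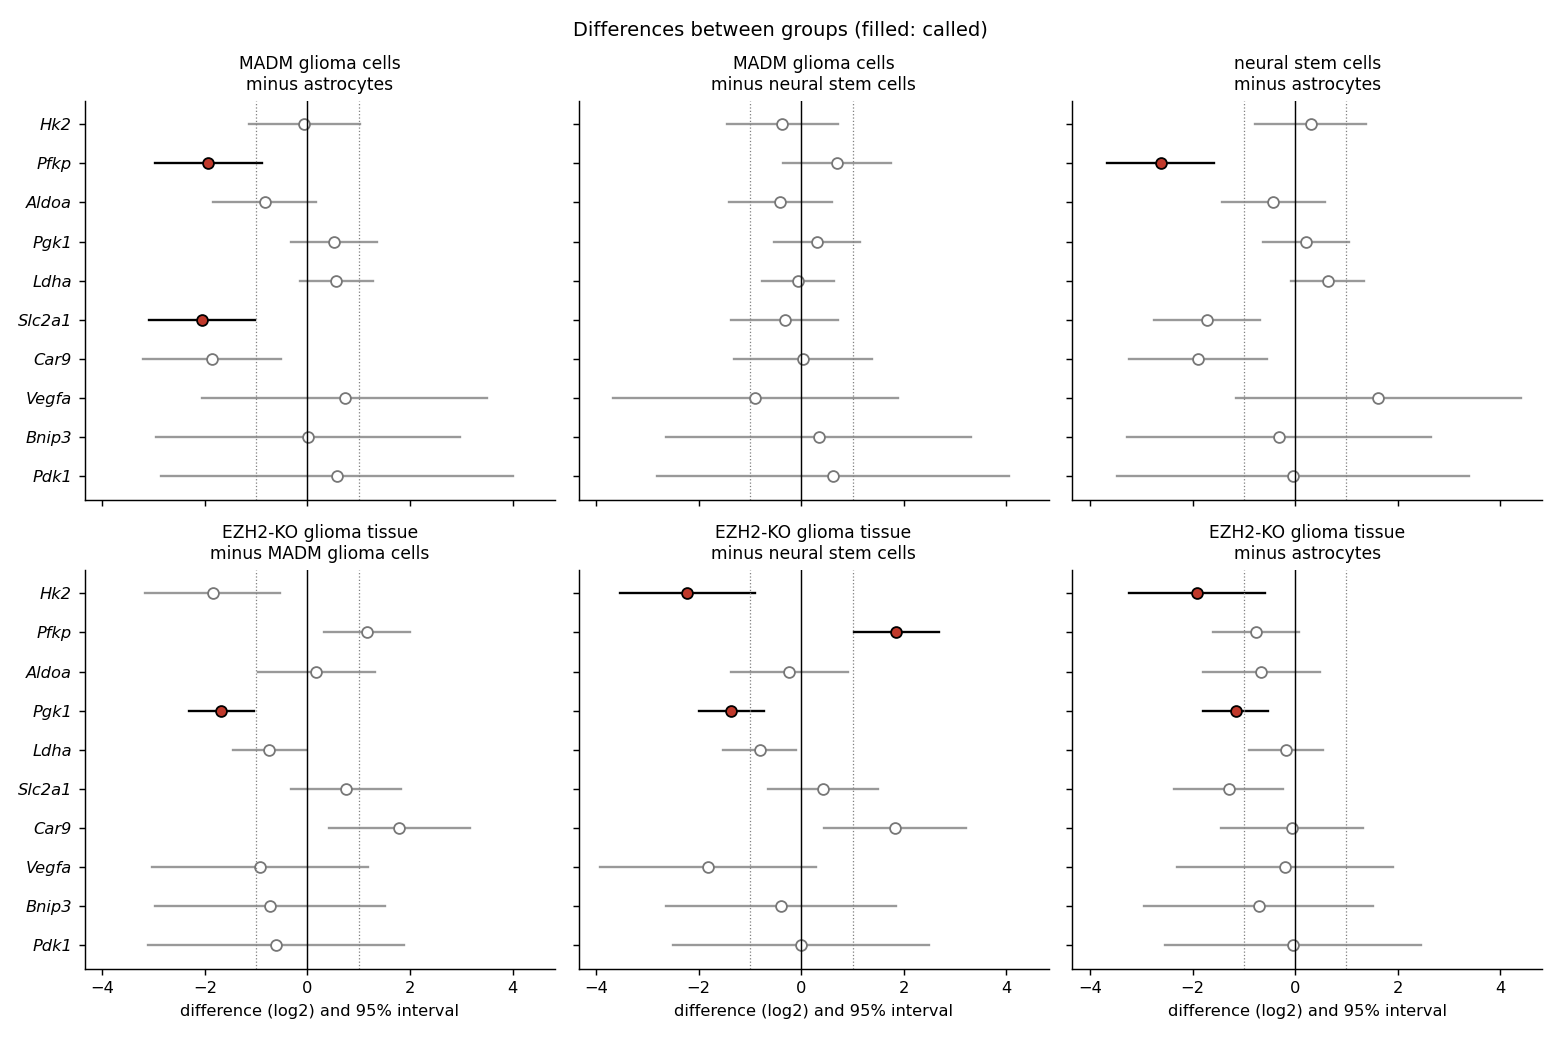
Difference in level (log2) between 2 groups with its 95% interval from limma, 1 panel a comparison and 1 line a gene. Filled points are called and dotted lines mark 2-fold. Called points are Pfkp, Slc2a1, Hk2 and Pgk1 only, and the intervals of Vegfa, Bnip3 and Pdk1 are the widest in every panel.

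Cell mixture differed beside these values, and in bulk RNA fewer cells of a type and less RNA per cell cannot be told apart. All 8 microglia and macrophage markers were well above background on the tissue arrays (averages 3.66 to 4.63) and on the astrocyte arrays (3.67 and 3.96). On the glioma cell arrays 3 and 4 of the 8 were (averages -4.31 and -3.73), and on the neural stem cell arrays 7 (-0.14 and -2.00). These markers stood high in astrocytes and in tissue. Slc2a1 and Pfkp were called above glioma cells in astrocytes. In tissue both were also above glioma cells but not called, Pfkp by 1.16 with arrays not overlapping and Slc2a1 by 0.75 with overlap. All 7 endothelial and pericyte markers were above background in tissue (averages -1.12 to -0.50), against 2 to 5 in the cells (-6.01 to -2.27). The 8 cell cycle genes averaged 0.30 to 0.60 in tissue, 3.11 and 3.18 in glioma cells, 0.31 and 3.46 in neural stem cells and -1.74 and -1.06 in astrocytes. The part of cell mixture in the differences of the 10 genes was not tested.

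Pdk1, Vegfa and Bnip3 differed more between arrays of 1 label than between any groups' means, as did Aldoa, whose tissue arrays were given above. Array 1 minus array 2 was 2.78 for Pdk1, 2.28 for Vegfa and 1.97 for Bnip3 in glioma cells, and 3.33, 2.43 and 3.13 in neural stem cells. In astrocytes it was -0.08, -1.05 and 0.54. These differences compare single arrays, so they have no test. Of all genes tested, 2.07% were at least 2-fold higher on array 1 in both the glioma cell and the neural stem cell pair, and of the 10 genes these 3 were. Ranked by the smaller of the 2 differences among the 20715 genes well above background on all 4 arrays, Pdk1 was number 10, Vegfa 37 and Bnip3 62, a rank described after the pattern was seen.

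In the glioma cell pair all 10 genes were higher on array 1, from 0.23 for Ldha to 2.78 for Pdk1, with a median of 0.90 against -0.01 over all genes. They were also all 10 higher without scaling, after quantile or median scaling and after normexp correction. At least 2-fold higher were 4 of the 10, beside 8.67% of all genes, with 5 under quantile normalization, 6 without scaling and 3 after normexp. Car9 was among the 4 at 1.21, but it was not well above background on array 2, and normexp put it at 0.16. In the neural stem cell pair 5 of 10 were higher on array 1 (9 of 10 under quantile normalization or without scaling), and 3 were at least 2-fold higher, beside 10.5%. Differences of the glycolytic enzyme genes among the 10 were small there. Hk2 differed by -0.60, Pfkp by 0.50, Aldoa by -0.27, Pgk1 by -0.19 and Ldha by -0.30. Of 13 other glycolytic enzyme genes, however, 3 were at least 2-fold higher on neural stem cell array 1. Of 11 genes of glucose and lactate transporters and flux regulators, 6 were. None of either list was at least 2-fold lower there. In the glioma cell pair none of either list was at least 2-fold higher, and 1 and 2 were at least 2-fold lower. In the astrocyte pair none of the 10 genes was at least 2-fold higher on array 1 (9.67% of all genes were) and Vegfa alone was at least 2-fold lower (8.39%).

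**Figure D3:**
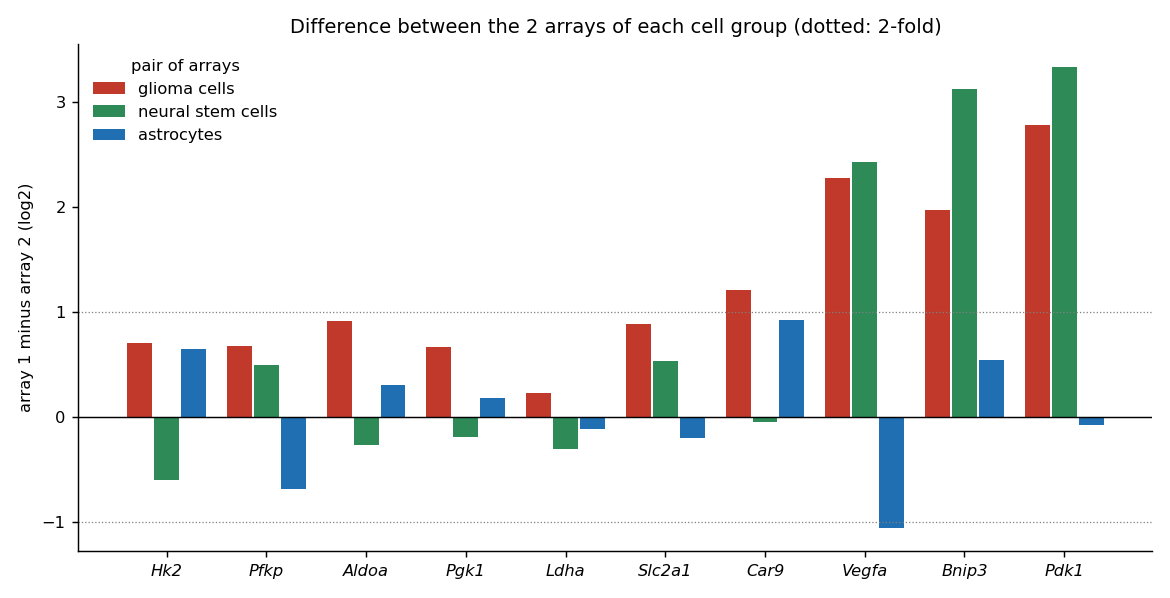
Array 1 minus array 2 (log2) for each gene in the 3 cell groups with 2 arrays, with dotted lines at 2-fold. Vegfa, Bnip3 and Pdk1 are between 1.97 and 3.33 in glioma cells and neural stem cells, and the glycolytic enzyme genes are between -0.68 and 0.92.

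Other markers differed within the same pairs. Neural stem cell array 1 had all 8 astrocyte markers at least 2-fold above array 2, microglial markers averaging -0.14 against -2.00 and cell cycle genes averaging 0.31 against 3.46. Glioma cell array 1 had neural stem cell markers averaging 1.68 against 4.48 (median difference -1.34, with Sox2 at -7.55 against 2.28 and Prom1 at -6.27 against -1.34), neuron markers averaging 0.75 against 2.20, and cell cycle genes at 3.11 against 3.18. Cell cycle genes thus differed in 1 of these 2 pairs. Fibroblast and meningeal markers were at least 2-fold higher on array 1 for 3 of 5 in each pair, with medians of 1.69 in glioma cells, where 1 was at least 2-fold lower, and 1.18 in neural stem cells. In glioma cells 3 of 8 astrocyte markers were at least 2-fold higher on array 1 and none at least 2-fold lower, with a median of 0.015. The part of these markers in the differences of Pdk1, Bnip3 and Vegfa was not tested, and no label gives oxygen, density or passage.

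Among 17 other known HIF target genes tested, P4ha2, a collagen prolyl hydroxylase subunit, was the only 1 at least 2-fold higher on array 1 in both pairs (3.36 in glioma cells and 3.41 in neural stem cells). P4ha1 was just short of 2-fold in neural stem cells, at 0.96. Bnip3l was at 0.66 and 1.02 and Ero1a at 0.46 and 0.65. Several others had opposite signs: Angptl4 was at -2.24 (in glioma cells only 1 array had it well above background) and 4.75, Ankrd37 at -1.50 and 1.88, and Ndrg1 at 2.63 and -0.76. The list's median was 0.30 in glioma cells and 0.23 in neural stem cells. Among oxygen sensing genes, Epas1, which encodes the HIF-2 alpha subunit, was at 1.09 and 1.56, and Hif1a at 0.51 and 0.29. Egln3 was at -0.02 and 1.14. The median of the 10 oxygen sensing genes was -0.05 in glioma cells and 0.22 in neural stem cells. At least 2-fold higher on array 1 were 1 of them in glioma cells and 3 in neural stem cells, and none was at least 2-fold lower. The lactate exporter gene Slc16a3, often induced by hypoxia, was at -3.50 and 5.72.

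**Figure D4:**
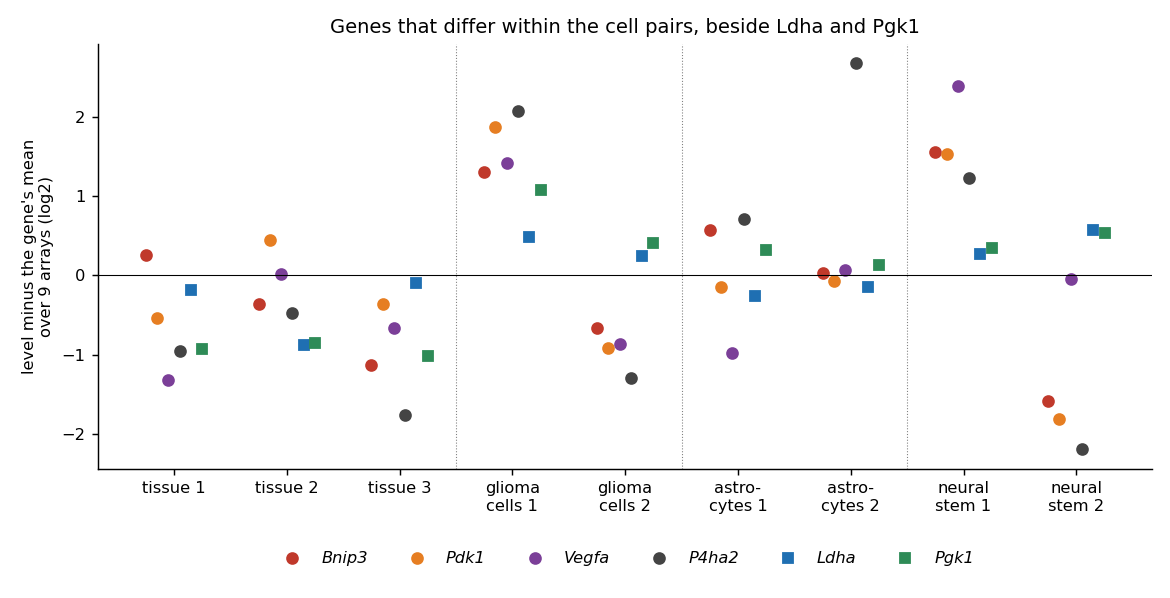
Level minus the gene's own mean over the 9 arrays (log2) for Bnip3, Pdk1, Vegfa and P4ha2 (circles) and for Ldha and Pgk1 (squares), array by array. The circles lie above 1 on array 1 of the glioma cells and of the neural stem cells and below 0 on array 2 of both, while Ldha and Pgk1 differ between array 1 and array 2 by at most 0.67 in these groups.

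Likeness over all 9 arrays was measured as the root mean square difference of 2 genes' centred levels. Bnip3 and Pdk1 were each other's nearest gene of the 10, at 0.56, and only 4 of 25409 genes were nearer to Bnip3 and 5 nearer to Pdk1. Vegfa was nearest to Pdk1 (0.79, with 86 genes nearer). Pfkp and Slc2a1 were nearest to each other (0.68), as were Pgk1 and Ldha (0.50), but 481 to 7238 genes were nearer in these pairs. Hk2 was nearest to Pgk1 (0.60), Aldoa to Ldha (0.68) and Car9 to Slc2a1 (0.74). Over all genes, the nearest named gene to Ldha was Ciao2b (0.10). Vegfa had 1700001D01Rik (0.41), Rufy4 (0.42) and Rhox2c (0.48) nearest, and Car9 had H2-T10 (0.43) and Oas1e (0.43) nearest after a transcript without a gene symbol. The 9 arrays include pairs that differ in many genes, and the measure carries no test.

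The other genes of these pathways were taken from 7 lists with 81 genes tested. In glioma cells against astrocytes 15 of the 81 were called (18.5%, beside 19% of all genes). There 2 of 13 other glycolytic enzyme genes fell, Eno2 (the neuronal enolase) by 3.35 ± 0.63 with limma's adjusted p = 0.025, and Hk3, which was not well above background in glioma cells and was at least 37.7-fold lower (adjusted p = 0.005). Of 11 transporters and flux regulators 3 fell: the genes of the bifunctional enzymes that set fructose 2,6-bisphosphate, Pfkfb4 by 2.72 ± 0.40 (0.013) and Pfkfb3 by 2.32 ± 0.54 (0.042), and Pdk4, at least 63.6-fold lower (0.049). The monocarboxylate transporter gene Slc16a7 (2.53 ± 0.39, 0.015) and Pdk3 (1.13 ± 0.27, 0.044) rose. Of 17 other HIF targets Adm, Ndrg1 and Plin2 fell by 5.77, 4.69 and 1.84, and Ankrd37 rose by 4.25. Nrp1, a VEGF co-receptor, fell by 3.78, Arnt2, a HIF partner subunit, by 1.71 and the carbonic anhydrase gene Car2 by 3.31, while Car8 was at least 4.65-fold higher. None of 12 pyruvate oxidation and citrate cycle genes was called.

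Neural stem cells against astrocytes called 7 of the 81 (8.64%, beside 14.6% of all genes). Lower were Eno2 (-3.23 ± 0.63, limma's adjusted p = 0.032), Hk3 (-3.40 ± 0.54, 0.019), Ndrg1 (-6.88 ± 0.94, 0.014) and Plin2 (-2.14 ± 0.43, 0.034), and Lox, a collagen crosslinking enzyme, was at least 88.9-fold lower (0.046). The Lox bound rests mainly on astrocyte array 2, where Lox lay at 2.57 against -2.65 on array 1 and where fibroblast and meningeal markers averaged 6.10 against 0.64. The part of those cells in the Lox value was not tested. Vegfb rose by 1.67 ± 0.35 (0.037) and Car8 was at least 94.1-fold higher (0.005). No transporter, oxygen sensing or citrate cycle gene was called. Glioma cells against neural stem cells called no gene of any of the lists. The gene of each list with the largest difference was Angptl4 (-6.38, limma's adjusted p = 0.169), Vegfc (-2.72, 0.307), Hif3a (-2.23, 0.550), Cs (-0.92, 0.237) and, each not well above background in glioma cells, Car3 (0.207), Pdk4 (0.425) and Hk3 (0.213).

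In tissue against glioma cells 10 of the 81 were called (12.3%, beside 16.9% of all genes). Eno2 rose by 4.70 ± 0.65 (limma's adjusted p = 0.004), Pfkfb4 by 1.79 ± 0.33 (0.012), Vegfc by 3.57 ± 0.78 (0.021) and the vasoactive peptide gene Adm by 3.56 ± 0.94 (0.039). Hk3 was at least 17.9-fold and Pdk4 at least 18.2-fold higher. Car2 and Car11 rose by 4.41 and 3.39 while Car1 fell by 1.38, and Higd1a, a mitochondrial HIF target, fell by 1.04. No oxygen sensing gene and no citrate cycle gene was called. Tissue arrays held neuron markers at 3.15 to 4.29, against 0.75 and 2.20 in glioma cells, and Eno2 is known as a neuronal enolase. Astrocyte arrays held these markers at -0.72 and -1.45, with Eno2 at 2.77 and 3.14, against -0.91 and 0.11 in glioma cells. The part of neurons in the Eno2 differences was not tested.

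Against neural stem cells 12 of the 81 were called in tissue (14.8%, beside 18% of all genes), and against astrocytes 10 (12.3%, beside 23%). Relative to neural stem cells, the tissue had Eno2 higher by 4.58 ± 0.65 (limma's adjusted p = 0.004), Hk3 by 2.32, Slc16a7 by 2.56, Ndrg1 by 4.10 and the VEGF receptor gene Flt1 by 3.07. The phosphoglycerate mutase gene Pgam1 fell by 1.03, Vegfb by 1.25 and the citrate synthase gene Cs by 1.24. Car3, Car8 and Car1 fell by 4.58, 2.77 and 2.23, and Car11 rose by 3.39. Against astrocytes, the tissue had Slc16a7 higher by 3.35 ± 0.40 (0.002), Ankrd37 higher by 3.35 ± 0.63 (0.010) and Hif3a at least 23.9-fold higher (0.033). The HIF prolyl hydroxylase gene Egln3 fell by 2.91 ± 0.73 (0.027), Arnt2 by 1.14, P4ha1 by 2.62, Plin2 by 1.80, Nrp1 by 2.23 and Car1 by 2.00, and Car8 was at least 13.8-fold higher. No other glycolytic enzyme and no citrate cycle gene was called there. All 3 tissue comparisons share the slide and software confound given above.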

How the data were processed

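RNA of 9 mouse samples was measured on single-colour Agilent arrays. The deposited scanner files hold spot intensity on a linear scale, with background subtracted and spatial trends removed within each array, per the file headers. The tissue arrays were read with 10.7.3.1 and the cell arrays with 10.7.1.1 of the Agilent Feature Extraction software. A table of log2 values deposited by the authors equals the log2 processed signal without scaling (99.01% to 99.81% of values within 0.01) and served as an alternative. Its column medians ran from 5.09 to 6.29.

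Outlier spots were dropped, spots of 1 probe averaged, and log2 processed signals set against each array's 75th percentile. Tested probes had a group whose arrays were all well above background, and a gene was its brightest tested probe over the 9 arrays. Names came from the files or, by accession or symbol, from a RefSeq table. The cell groups were compared in 1 limma 3.58.1 fit of 6 arrays (24879 genes, 3 residual degrees of freedom) and the tissue in a fit of 9 arrays (25410 genes, 5), in R 4.3.3, two-sided, with Benjamini-Hochberg adjustment over all genes tested. Python 3.11.15, pandas 2.3.3, numpy 2.4.6 and matplotlib 3.10.9 read the files and drew figures. The fits were tested on simulated data. The number of arrays limits the precision. A gene that no array of a group showed well above background has a bound: the other group's mean over the dim arrays' mean, each dim array taken at its own signal or at its lowest well-above-background signal, if that is higher.

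The genes, the pathway and marker lists and the tests were chosen with earlier results of these data known. All 10 genes are reported in every comparison. From each pathway list the text names the called genes, up to the 3 largest in each direction, or the largest difference where none was called. For Ldha, Vegfa and Car9 it names the 3 genes with the most similar levels, and for each gene the most similar of the 10. Replicate numbers were not treated as pairs, since same-numbered arrays did not deviate together (correlations from -0.09 to 0.12). Alternatives were other scalings and background corrections, filters, the mean of a gene's probes, a replicate block, and leaving out each array.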

Additional observations from a re-analysis of the deposited data

How the results depend on the processing

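Counts of the 10 genes called moved with the processing. In neural stem cells against astrocytes the count rose from 1 to 2 under quantile normalization, median scaling, normexp, the stricter filter (above background on every array), the mean of tested probes and a fit of all 9 arrays, since Slc2a1 then passed. In tissue against glioma cells it rose from 1 to 2 under median scaling and the mean of probes. The mean of probes lowered glioma cells against astrocytes from 2 to 1. Without scaling, tissue against neural stem cells fell from 3 to 1 and tissue against astrocytes from 2 to 0. Without a filter, tissue against astrocytes fell to 1 and the F test from 4 to 2. With the replicate block, glioma cells against astrocytes gave 1, tissue against neural stem cells 1, tissue against astrocytes 0 and the F test 1, where Pfkp (limma's adjusted p = 0.030) passed and Pgk1 (0.059), Slc2a1 (0.105) and Hk2 (0.136) did not. With 1 array left out, the counts ran from 0 to 1 in glioma cells against astrocytes, 0 to 1 in neural stem cells against astrocytes, 0 to 2 in tissue against glioma cells, 0 to 3 in tissue against neural stem cells, 0 to 3 in tissue against astrocytes and 2 to 4 in the F test. A group left with 1 array was assumed to vary like the others. Of the differences with an unadjusted p under 0.1, 2 changed sign: Ldha in neural stem cells against astrocytes to -0.033 under quantile normalization, and Pfkp in tissue against astrocytes to 0.27 with the mean of probes. The causes were not tested.

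Over all genes, the median difference of tissue minus glioma cells was -0.16 as reported, 0.38 without scaling and -0.33 with median scaling, and the share of higher calls was 46.2%, 79.6% and 35.1%. The share was 47.8% and 30.1% without scaling in glioma cells against astrocytes, 46.2% and 24.2% in neural stem cells against astrocytes, and 45.0% and 77.7% in tissue against neural stem cells (36.0% with median scaling). In tissue against astrocytes it was 46.1%, and 35.3% with median scaling. Counts of all genes called fell by over 1.5 times in several settings: with the replicate block to 50 from 247 in glioma cells against neural stem cells, to 2603 from 4305, 2593 from 4565 and 3178 from 5837 in tissue against glioma cells, neural stem cells and astrocytes, and to 5641 from 9756 in the F test. The stricter filter gave 68 and 2766 in the first 2 of these, and the unfiltered fit gave 134 in the first. With 1 array left out, glioma cells against neural stem cells called 0 to 300 genes, with 0 without neural stem cell array 1 and 5 without array 2. The fit of all 9 arrays raised glioma cells against neural stem cells from 247 to 486. A slide block was not run, because each slide held either tissue or cells. In the fit of 9 arrays normexp used median spot signals, chosen after seeing the data, since mean signals were at hand for the cell arrays only.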

Other observations

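Genes other than the HIF targets also differed in the same direction in both pairs of arrays. Among the 20715 genes well above background on all 4 arrays, those with the largest smaller difference were S100a1 (5.03 in glioma cells and 5.33 in neural stem cells, array 1 minus array 2, log2), the cartilage collagen gene Col2a1 (5.36 and 4.90), Dhrs3 (4.49 and 6.21), the sulphate donor synthase gene Papss2 (4.25 and 4.38) and Cpm (4.96 and 3.51). P4ha2 and Col9a1 (4.02 and 3.22) followed, and Txnip, a thioredoxin-binding gene that responds to glucose, was number 23 (2.43 and 3.50). They were chosen after their values were seen, and no test was made of them.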
